A study of Mus musculus with 16 samples.

Results

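Neural progenitor cells (NPCs) treated with a control siRNA were compared with untreated NPCs, to ask which contacts of the Sox2 and Klf4 loci recur when the culture and the 3C protocol change. The comparison holds 2 control siRNA libraries and 2 untreated libraries, 4 of the 16 samples of the series. Contacts were read by chromosome conformation capture carbon copy (5C), which counts ligation products between restriction fragments with a forward primer on one fragment and a reverse primer on the other. The members are the forward-reverse primer pairs within the Sox2 or the Klf4 locus that the control siRNA count tables list. There were 33174 such pairs, 17424 at Sox2 and 15750 at Klf4, from 515 primers (264 and 251). The untreated tables list 499640 distinct primer pairs over 7 loci, and everything outside the members was left aside. All positions are mm9, with the Sox2 locus on chromosome 3 from 34108881 to 35104880 and the Klf4 locus on chromosome 4 from 54899980 to 55887979.

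Both kinds of NPC were grown as neurospheres from the whole brain of P1 129SvJae x C57BL/6 mice that carry a Sox2-eGFP allele, and both were then plated on poly-D-lysine and laminin. Untreated NPCs were plated at 60000 cells/cm2, fixed a day later and processed by HindIII 3C. Control siRNA NPCs were plated at 20000 cells/cm2, held with 20 nM siRNA for 78 h and processed by in situ HindIII 3C, in which ligation takes place inside nuclei. Their culture text describes YY1 siRNA, and the group was taken from the sample titles, which name a control siRNA. Protocol, plating density, siRNA and sequencing thus change together, and their parts in any difference cannot be told apart. Whether the 2 libraries of each group stem from separate cultures is not in the labels, and the tests therefore measure only the spread between these libraries. No expression data were used that could check the cell type.

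Enhancers and promoters far apart on a chromosome can meet in loops, many of which end at sites bound by CTCF, a zinc-finger protein that halts the loop-extruding cohesin complex. Sox2 encodes a transcription factor used by both pluripotent cells and neural progenitors, and its neighbourhood holds different enhancers for each state. Klf4 encodes a pluripotency factor that is low in neural progenitors. In 5C on a bulk population, a contact present in fewer cells and a contact made less often in each cell cannot be told apart.

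The 2 untreated libraries held 3777022 and 4150872 reads in the member pairs, and the 2 control siRNA libraries 5792078 and 6251316. The reads were spread differently over the pairs. The busiest 1% of pairs held 56.4% and 51.6% of the reads in untreated NPCs and 25.8% in each control siRNA library. Pairs with no read made up 6.00% and 5.31% in untreated NPCs and 10.1% and 9.76% after control siRNA. The Sox2 locus took 54.7% and 54.0% of the reads in untreated NPCs and 59.3% and 58.7% after control siRNA.

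Contacts between close fragments took a far smaller share of the reads after control siRNA. At Sox2, primer pairs under 16 kb apart (577 of 17160) held 64.0% and 60.3% of the reads in the untreated libraries and 28.8% and 28.7% in the control siRNA libraries. At Klf4, the 552 such pairs of 15500 held 73.2% and 69.9% in untreated NPCs against 32.1% and 31.7% after control siRNA. The groups did not overlap in either locus, and with 2 libraries a group no exact permutation test can go below p = 0.333. The YY1 siRNA libraries, made with the control siRNA libraries' protocol, lay at 25.9% to 31.9%, and embryonic stem (ES) cells lay at 50.7% to 58.6% in 2i medium and 35.9% to 48.3% in serum. The slope of log count on log distance, over primer pairs at all distances, was at Sox2 -0.779 and -0.792 in untreated NPCs and -0.733 and -0.714 after control siRNA. At Klf4 the slopes were -1.06 and -1.13 against -1.08 and -1.07, with overlapping groups (difference 0.026, exact permutation p = 1). The Sox2 slopes did not overlap (difference 0.062, exact permutation p = 0.333). From 32 kb upward both differences turned, to -0.057 at Sox2 and -0.197 at Klf4, and over window pairs the Klf4 difference was -0.040.

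Because the decay differed at short range, each count was set against the count expected for its distance in the same library and locus, and counts were summed over pairs of 16 kb windows. Values below are log2 observed over expected, so 0 is the level expected for the distance and 1 is a doubling. Of 3777 window pairs tested, 594 rose (15.7%) and 545 fell (14.4%) in control siRNA NPCs by edgeR's quasi-likelihood test at an adjusted p of 0.05, 30.2% in all. The libraries of the 2 groups did not overlap in 67.7% of the pairs. At an unadjusted p of 0.05, 1572 passed. For 993 pairs (26.3%) the 95% interval of the difference lay within 2-fold in either direction, and these are the contacts whose level recurred to that precision. A pair with a small difference can be both called and bounded, so the sets overlap. The median absolute difference was 0.61, and 28.1% of pairs differed by more than 2-fold.

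Pairs bounded within 2-fold were 611 of 1945 at Sox2 (31.4%) and 382 of 1832 at Klf4 (20.9%), counts with no test of their own. This share depends on how wide the intervals are: it was 1.06% for single primer pairs and 62.3% with 32 kb windows. A lower share at Klf4 or at longer distance therefore does not by itself show less recurrence. Calls were about as frequent in both, 329 higher and 304 lower at Sox2 and 265 higher and 241 lower at Klf4. Both shares fell with distance. Among windows at most 2 apart, 63.7% of pairs changed and 41.1% were within 2-fold; from 20 to 39 windows 20.8% changed and 16.2% were within 2-fold. The 2 untreated libraries differed from each other with a biological coefficient of variation of 20.3%, and the 2 control siRNA libraries with 33.0%. With a library left out, the spread was measured by the other group alone. Leaving out either control siRNA library did not lower the share of pairs called. The counts of calls rested on having both untreated libraries. Without untreated replicate 1 they were 219 higher and 165 lower, and without untreated replicate 2 they were 236 and 199, each with that group reduced to 1 library.

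Over the 3479 window pairs at least 3 windows (48 kb) apart, Pearson's r was 0.84 between the untreated libraries, 0.81 between the control siRNA libraries and 0.57 to 0.62 across the 2 groups. These correlations describe window pairs that share libraries, primers and windows, and carry no test. A control siRNA library was about as close to ES cells in serum (0.59 to 0.63) as to untreated NPCs, less close to ES cells in 2i (0.39 to 0.43) and closest to the YY1 siRNA libraries (0.72 to 0.83). The order differed by locus once window totals were balanced within each library, that is, scaled until observed and expected totals matched for every window. At Sox2, control siRNA NPCs then had r of 0.55 to 0.61 with untreated NPCs, 0.39 to 0.46 with serum ES cells and 0.22 to 0.27 with 2i ES cells. At Klf4 the values were 0.33 to 0.36, 0.38 to 0.42 and 0.24 to 0.29, so the control siRNA libraries were there slightly closer to serum ES cells than to untreated NPCs. The 2 control siRNA libraries themselves had a balanced r of only 0.45 at Klf4, against 0.70 at Sox2. With balanced 32 kb windows the Klf4 values rose to 0.61 to 0.70 with untreated NPCs and 0.61 to 0.68 with serum ES cells, beside 0.73 to 0.76 and 0.38 to 0.42 at Sox2. At Sox2 the balanced libraries of both window sizes were closer to untreated NPCs than to ES cells, and at Klf4 the values with untreated NPCs and with serum ES cells overlapped at 32 kb.

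Among the strongest contacts, 63 of the top 174 window pairs (5% of each locus) in untreated NPCs were also in the top 174 after control siRNA, or 36.2% (exact 95% binomial interval 29.1% to 43.8%, which treats pairs as independent). Sox2 gave 33 of 88 and Klf4 30 of 86. Single libraries shared 67.8% of their top pairs within the untreated group, 62.6% within the control siRNA group and 31.6% to 36.2% across the groups. The control siRNA top pairs overlapped those of serum ES cells in 46.0%, of 2i ES cells in 26.4% and of YY1 siRNA NPCs in 69.0%. The top pairs of untreated NPCs and serum ES cells shared 45.4%. The share between the 2 NPC groups was below that of either group with serum ES cells. With balanced windows it was 35.1%, against 36.2% for control siRNA with serum ES cells. At Sox2, the 20 strongest untreated pairs were all above the expected level in control siRNA NPCs, 16 of them above 2-fold, although 12 fell and 0 rose. At Klf4, 18 of the 20 were above expected, 7 fell and 1 rose. Of all 3422 tested pairs at least 3 windows apart, 1745 were above expected in control siRNA NPCs and 613 above 2-fold. In that set 12.2% fell and 14.5% rose. Pairs picked for a high value in one group tend to be lower in any other: ranked by control siRNA, 14 of the top 20 at Sox2 and 12 at Klf4 were higher in control siRNA and 0 were lower.

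Among the named Sox2 contacts, 3 that were bounded within 2-fold share the window chr3:35036881-35052880 at the distal end of the locus. Over all 61 tested pairs of this window 17 rose and 5 fell, or 2 and 13 with balanced windows. Its pair with chr3:34332881-34348880, 704 kb away, stood at 2.42 and 2.08 in untreated NPCs and at 2.58 and 2.42 after control siRNA. The difference was 0.18 (95% interval -0.21 to 0.57, edgeR adjusted p = 0.46), so both control siRNA libraries lay at or slightly above the untreated ones and the difference was bounded within 2-fold. ES cells had 0.94 to 1.13 there, below all 4 NPC libraries. The pair of the same distal window with chr3:34572881-34588880 had 2.37 and 2.24 in untreated NPCs and 2.18 and 2.13 after control siRNA (difference -0.22, interval -0.62 to 0.19), against 1.01 to 1.45 in ES cells. With chr3:34540881-34556880 it had 3.27 and 2.70 against 3.13 and 2.86 (difference -0.07, interval -0.54 to 0.39), and ES cells had 1.21 to 1.84. In these 3 contacts both NPC cultures stood above every ES library, with the NPC difference bounded within 2-fold. All 3 were named for a high NPC level, and the first 2 also for that bound, so these traits are part of the choice. With balanced windows the first 2 became lower in control siRNA, by -0.54 (edgeR adjusted p = 0.032) and -0.51 (edgeR adjusted p = 0.043). The third shifted by a like amount, to -0.49, and was not called (edgeR adjusted p = 0.052). The equality of these 3 contacts was thus seen on the distance scale only.

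A further strong contact recurred in every cell state. The pair chr3:34652881-34668880 with chr3:34988881-35004880 had 2.39 and 2.57 in untreated NPCs, 2.40 and 2.20 after control siRNA and 2.29 to 2.95 in ES cells, and the NPC difference was -0.24 (interval -0.66 to 0.18, edgeR adjusted p = 0.36). Other named contacts of these windows fell. The pair chr3:34540881-34556880 with chr3:34972881-34988880 dropped from 3.58 and 3.05 to 1.62 and 1.67 (difference -1.76, SE 0.21, edgeR adjusted p = 0.00032), inside the ES range of 1.48 to 2.31. The pair chr3:34556881-34572880 with chr3:35036881-35052880 dropped from 3.08 and 3.00 to 1.95 and 1.88 (difference -1.19, SE 0.16, edgeR adjusted p = 0.00059), which was still above the 0.47 to 1.06 of ES cells. Both of these held in direction and call with balanced windows.

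The strongest untreated contact of the Sox2 locus did not recur, and most of its reads came from a single primer pair. The pair chr3:34252881-34268880 with chr3:34780881-34796880 had 3.82 and 4.46 in untreated NPCs, 2.89 to 3.28 in ES cells, and 0.46 and 0.32 after control siRNA (difference -3.84, SE 0.26, edgeR adjusted p = 2.5e-05). One primer pair held 93.8% of its reads, and without that primer pair the difference was 0.13. The YY1 siRNA libraries, with 0.74 and 0.43, were low as well. The deposited classification calls this contact constitutive.

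Other Sox2 contacts were stronger after control siRNA. The pair chr3:34204881-34220880 with chr3:34380881-34396880 had 1.64 and 1.62 in untreated NPCs and 2.92 and 2.73 after control siRNA (difference 1.13, SE 0.16, edgeR adjusted p = 0.00067), and no primer pair held more than 14.8% of its reads. With balanced windows it was 0.39 and not called. The pair chr3:34636881-34652880 with chr3:34684881-34700880 went from 2.24 and 1.22 to 3.13 and 3.25 (difference 1.31, SE 0.27), and ES cells had 1.51 to 3.23. The pair chr3:34716881-34732880 with chr3:35020881-35036880, which the authors class with 2i ES cells only, went from 2.05 and 1.52 to 3.15 and 3.09 (difference 1.26, SE 0.26), beside 3.18 and 3.97 in 2i ES cells. Neither was called with balanced windows (0.55 and 0.29), and the leading primer pair held 72.2% and 74.9% of their reads. Other large rises at Sox2 were those of chr3:34300881-34316880 with chr3:34764881-34780880, from -1.45 and -1.35 to 0.58 and 1.15 (difference 2.24, SE 0.30), and chr3:34428881-34444880 with chr3:34764881-34780880, from -1.25 and -1.36 to 1.03 and 0.91 (difference 2.22, SE 0.27). In those contacts the leading primer pair held 55.3% and 58.4% of the reads. Both share the window at 34764881 and stayed called with balanced windows, at 1.16 and 1.69. These were contacts below the expected level in untreated NPCs, near or above it in control siRNA, and between -1.66 and 0.11 in ES cells. The largest rise among the named Sox2 pairs was that of chr3:34124881-34140880 with chr3:34876881-34892880 (difference 2.60, SE 0.69). It rested on 7 and 11 reads in untreated NPCs against 197 and 86, and its leading primer pair held 94.0% of the reads. The rise was not called when either untreated library was left out.

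The deepest Sox2 falls were contacts that control siRNA libraries hardly counted. In the order given below, their leading primer pairs held 45.2%, 86.7% and 89.1% of the reads. The window chr3:34268881-34284880 with chr3:34812881-34828880 had 51 and 45 reads in untreated NPCs and 1 and 7 after control siRNA (difference -5.10, SE 1.00). With chr3:34796881-34812880 it had 62 and 27 reads against 8 and 1 (difference -4.86, SE 1.08), a call that was lost with balanced windows (-2.79, edgeR adjusted p = 0.10). These falls, with that of chr3:34316881-34332880 with chr3:34796881-34812880 (difference -4.30, SE 0.84), each lost their call when either untreated library was left out.

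At Klf4, one contact outweighed all others in every library. The pair chr4:55107980-55123979 with chr4:55635980-55651979, 528 kb apart, had 8.47 and 7.38 in untreated NPCs, 7.31 and 7.54 after control siRNA, 6.55 to 8.17 in ES cells and 9.18 and 7.56 after YY1 siRNA. The groups overlapped, and the difference was -0.66 (interval -1.28 to -0.03, edgeR adjusted p = 0.10). With balanced windows it was -1.23 and called lower (edgeR adjusted p = 0.0012). A single primer pair held 96.7% of its reads. Without untreated replicate 2 the difference was -1.10 and called (edgeR adjusted p = 0.0092). Of the 20 strongest Klf4 pairs in untreated NPCs, 0 were bounded within 2-fold.

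Other named Klf4 contacts differed between the groups. Each was named for a high level in untreated or control siRNA NPCs or for a large change, so a difference is part of the choice. The pair chr4:54931980-54947979 with chr4:55779980-55795979 had 4.60 and 2.53 in untreated NPCs and 1.17 and 0.11 after control siRNA (difference -3.24, SE 0.63, edgeR adjusted p = 0.0044). The untreated libraries differed by over 2 log2 units there, the call was lost without untreated replicate 1 (-1.84), and without the leading primer pair, 89.4% of the reads, the difference was 0.92. The pair chr4:54947980-54963979 with chr4:55331980-55347979 rose from 0.70 and 1.06 to 3.13 and 3.79 (difference 2.56, SE 0.37, edgeR adjusted p = 0.0009). One primer pair held 96.2% of those reads, and without it the difference was -2.04. The pair chr4:55411980-55427979 with chr4:55859980-55875979 rose from 0.93 and 0.75 to 2.86 and 3.76 (difference 2.49, SE 0.37), and without its leading primer pair the difference was -0.01. The pair chr4:55107980-55123979 with chr4:55859980-55875979 had the largest rise of the locus, from 0.62 and -1.67 to 3.22 and 3.53 (difference 3.46, SE 0.59), and without its leading primer pair the difference was 1.06 and not called. A rise that stayed called with balanced windows was chr4:55331980-55347979 with chr4:55763980-55779979, from -0.09 and -0.46 to 2.26 and 2.52 (difference 2.61, SE 0.30). The same window with chr4:55555980-55571979 rose from -1.67 and -1.92 to 0.21 and 1.27 (difference 2.60, SE 0.46), a call lost with balanced windows (1.10).

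Other strong Klf4 contacts with few reads also moved. The pair chr4:54915980-54931979 with chr4:55395980-55411979 fell from 2.85 and 3.80 to 1.34 and 1.05 (difference -2.27, SE 0.58), below the 2.63 to 4.03 of ES cells, on 42 to 134 reads. The pair chr4:54915980-54931979 with chr4:55731980-55747979 rose from 2.38 and 2.64 to 4.62 and 3.82 (difference 1.71, SE 0.41), above the 2.13 to 3.04 of ES cells. Both calls were lost when either untreated library was left out. The pair chr4:54947980-54963979 with chr4:55363980-55379979 had 2.72 and 2.57 in untreated NPCs and 1.83 and 1.49 after control siRNA, and the difference of -1.04 was not called (edgeR adjusted p = 0.068).

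The largest Klf4 falls all involved the window chr4:55667980-55683979. With chr4:55587980-55603979 it had 19 reads over the 2 untreated libraries and 0 over the 2 control siRNA libraries, at least 18.3-fold lower relative to the expected count, with a floor of 3 reads over the group. With chr4:55731980-55747979 the reads were 108 and 1, a ratio of 296 (counting interval 52.1 to 11818). With chr4:55619980-55635979 they were 114 and 1, a ratio of 283 (49.7 to 11267). Counting intervals cover counting error only, since PCR reads without molecular identifiers are not independent molecules.

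Single primers carried much of the difference. Summed over all partners, 180 of 515 primers rose (34.95%) and 191 fell (37.1%) after control siRNA by edgeR at an adjusted p of 0.05, 72.04% in all, with log2 differences from -6.12 to 2.76. Additive terms for the 2 windows of a pair took up 67.1% of the variance of the log2 differences at Sox2 (1765 pairs) and 64.9% at Klf4 (1656 pairs). The contacts of a window thus tended to move together.

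The primers with the largest changes are given as their share of each library. Sox2 forward primer 120 took 0.558 and 0.778 of every 1000 reads in untreated NPCs and 4.11 and 3.86 after control siRNA (log2 difference 2.76, SE 0.19), and Sox2 forward primer 60 took 1.72 and 2.18 against 9.09 and 9.23 (2.42, SE 0.15). Sox2 reverse primer 99 took 2.40 and 4.53 against 0.184 and 0.111 (log2 difference -4.37, SE 0.23), and Sox2 reverse primer 234 took 1.72 and 1.65 against 0.141 and 0.095 (-3.65, SE 0.26). At Klf4 the largest rises were those of reverse primer 310, from 5.79 and 5.45 to 21.9 and 22.4, and reverse primer 148, from 2.58 and 2.63 to 8.89 and 9.63. Klf4 forward primer 292 took 1.43 and 1.52 against 0.031 and 0.006 (log2 difference -6.12, SE 0.31), the largest fall of any primer. Klf4 reverse primer 204 took 1.42 and 1.38 against 0.022 and 0.025, while ES cells had 2.83 to 3.97 and YY1 siRNA NPCs 0.044 and 0.035. The ES libraries, like the untreated NPC libraries, counted this primer often, and the siRNA libraries of both kinds hardly did.

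The same split held for all 18 primers that differed by more than 8-fold, every one of them lower in control siRNA. Together they took 25.2 and 31.9 of every 1000 reads in untreated NPCs, 37.9 and 45.6 in 2i ES cells, 31.6 and 32.4 in serum ES cells, 2.02 and 1.46 in control siRNA and 2.09 and 2.07 in YY1 siRNA libraries. These 18 were chosen on the untreated and control siRNA values, so only the ES and YY1 siRNA values are new here.

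The primer difference moved with base composition. The primer list gives a GC share beside each primer, headed as if for the fragment. Which sequence it describes is not stated, and 515 of 515 shares are whole multiples of 1/30. Across primers, which are not independent, the log2 difference had Pearson's r of 0.48 and Spearman's rho of 0.53 with this share, and a rho of -0.15 with fragment length. Among 93 primers at 20% to 33.3% GC the median difference was -1.09, with 6 higher and 75 lower. It was -0.30 in 119 primers at 36.7% to 40%, 0.08 in 145 at 43.3% to 46.7% and 0.42 in 97 at 50% to 53.3%. Among 61 primers at 56.7% to 76.7% it was 0.67, with 41 higher and 5 lower. The medians climbed with each band. Window pairs followed. In the lowest of 5 equal bands of mean GC share the median difference was -0.40 (30 higher and 134 lower of 686). In the highest band it was 0.27 (171 higher and 51 lower of 685). With balanced windows the medians of these 5 bands lay between -0.05 and 0.05. The part of base composition in single contacts was not tested beyond these values and a fit with a GC trend, in which 886 of the 1139 calls remained in the same direction.

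A few windows held many of the falls. In 6 of 123 windows more than 50% of the tested pairs fell, and in 3 more than 50% rose. At Klf4, the window chr4:55523980-55539979, which holds 2 CTCF peaks of untreated NPCs, fell in 53 of 58 pairs (median -2.28), and chr4:55363980-55379979 fell in 44 of 58 (median -1.81). At Sox2, chr3:34556881-34572880 fell in 40 of 61 pairs, and chr3:34124881-34140880 in 38 of 61 (median -1.34). The windows with mostly rises, at Sox2 only, were those starting at 34188881, 34764881 and 34780881, with 35, 35 and 33 of 61 pairs higher. Balancing the windows left 301 pairs higher (7.97%) and 361 lower (9.56%), 17.5% in all. Of the 1139 calls, 460 were called in the same direction after balancing (40.4%) and 13 in the opposite direction.

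The authors' deposited classification, made from ES and untreated NPC libraries, assigns looping pairs to classes, and the NPC only class asks most directly which NPC contacts recur. It covered 61 tested window pairs, 51 at Sox2 and 10 at Klf4. Their median level was 1.36 and 1.32 in the untreated libraries, 0.56 and 0.70 in the control siRNA libraries and 0.02 to 0.17 in the 4 ES libraries. The control siRNA libraries lay between the other groups. Of the 61 pairs 34 fell, 3 rose and 17 were bounded within 2-fold, with a median difference of -0.76, beside 14.4% lower and 15.7% higher over all pairs. The class was chosen for high values in untreated NPCs, so a lower level in any other library is no finding by itself. The comparison with ES cells uses libraries that the choice did not raise: both control siRNA libraries were above all 4 ES libraries in 29 of the 61 pairs (47.5%), against 29.1% of all tested pairs. By locus this was 26 of 51 at Sox2 and 3 of 10 at Klf4, where 4 of the 10 lay below all ES libraries. Pairs without a class had 30.3% above at Sox2, and 28.9% above and 26.4% below at Klf4. Since the classification used the ES values, low ES levels are part of the choice. In the 42 pairs outside the 6 windows with mostly falls, the control siRNA medians were 0.91 and 0.86, with 36 above the expected level, 18 lower and 3 higher. Those windows were set aside for falls in the same fit, so higher medians are part of that choice. Of 2895 pairs without a class left by it, 5.80% were lower, 16.1% higher and 1579 above the expected level.

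The counts within the class differed by partner window, with no test of that difference. At Sox2 13 of the pairs end at chr3:34540881-34556880, of which 10 fell and 10 stayed above the expected level after control siRNA. The 11 pairs ending at chr3:34524881-34540880 had 6 bounded within 2-fold, 3 lower and 2 higher. Over all 61 tested pairs of these windows, in and outside the class, the median differences were -0.57 and 0.07, so the windows as a whole differed in the same direction. The pair chr3:34188881-34204880 with chr3:34540881-34556880 had 1.60 and 1.79 in untreated NPCs, 1.97 and 2.11 after control siRNA and -0.78 to 0.57 in ES cells (difference 0.28, interval -0.11 to 0.68). The neighbouring window chr3:34204881-34220880 formed 2 pairs of the class and both rose, to 2.38 and 2.21 with the window at 34540881 (difference 0.62, edgeR adjusted p = 0.028) and to 2.29 and 2.22 with the window at 34524881 (difference 0.84, edgeR adjusted p = 0.0062). With balanced windows these were 0.27 and 0.33 and not called, and no pair of the class was called higher (0 of 61, with 28 lower). The pair chr3:34332881-34348880 with chr3:34540881-34556880 fell, from 2.90 and 2.74 to 1.90 and 1.42 (difference -1.21, SE 0.19, edgeR adjusted p = 0.0013), and still lay above the 0.30 to 0.58 of ES cells. Over all tested pairs, 27.6% had both control siRNA libraries below all 4 ES libraries. In the class these were 9 of the 61 pairs (14.8%), 5 at Sox2 and 4 at Klf4. Of these, chr3:34316881-34332880 with chr3:34540881-34556880 fell from 2.89 and 2.48 to 0.06 and 0.70, below the 0.78 to 1.62 of ES cells (difference -2.34, SE 0.26, edgeR adjusted p = 0.00025). All 4 class pairs of chr3:34268881-34284880, and all 4 of Klf4 window chr4:55523980-55539979, fell and lay below the expected level after control siRNA. One of the Klf4 pairs was below it in both untreated libraries too (-0.39 and -0.60). Examples in this paragraph were chosen after their values were seen.

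The other classes are read beside the shares over all tested pairs, 15.7% higher, 14.4% lower and 1936 of 3777 above the expected level. Contacts of ES cells in 2i and serum (26 pairs) had a median difference of -0.16, and 22 of the 26 were above the expected level in control siRNA NPCs. Constitutive contacts (16 pairs) had -0.03, with 1 higher and 4 lower, but -0.46 with balanced windows, with 0 higher and 4 lower. Contacts of 2i ES cells only (49 pairs) had -0.59, with 8 higher and 12 lower. The class shared by 2i ES cells and NPCs (13 pairs, all at Sox2) had -1.86, with 0 higher and 6 lower, but -0.49 with balanced windows. Pairs the authors class as background (130) had -0.06, with 22 higher and 28 lower.

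The authors' own interaction score, deposited for control siRNA in a separate table from the untreated scores, also placed NPC only contacts above background contacts. This score was within 1% of -10 times log2 of the deposited p-value in each of 55794 and 55785 bin pairs. Its medians over the 258 pixels of 4 kb in the NPC only class were 26.9 and 25.1 in the control siRNA libraries, and of the 252 pixels with a score in both libraries 34.5% were above 30 in both. Background pixels had medians of 1.37 and 1.56. The class of 2i and serum ES cells had 36.4 and 28.8, above the NPC only class, and the 2i only class had 9.40 and 11.7. Scores above 30 in both libraries were found in 38.3% of the 2i and serum pixels, 5.15% of 2i only and 0.21% of background pixels. In the untreated table the NPC only class had 56.0 and 52.3 and the class of 2i and serum 12.3 and 7.10. The 2 tables were normalised separately, so levels were not tested between them.

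Contacts between windows that each hold a CTCF peak of untreated NPCs were more often lower than higher after control siRNA. There were 7 peaks in each locus. Among 3422 tested pairs at least 3 windows apart, 14.5% rose and 12.2% fell. Of 25 pairs with a peak in both windows, 13 fell and 1 rose (median -1.02, or -0.48 with balanced windows, where 6 fell and 0 rose). With balanced windows 214 of the 3422 pairs fell and 211 rose. Of 623 pairs with a peak in 1 window, 157 fell and 54 rose (median -0.32), and of 2774 pairs with none, 248 fell and 440 rose (median 0.09). The Sox2 pairs with both peaks (14) had medians of 1.28 and 1.37 in untreated NPCs, 0.23 and 0.62 after control siRNA and 0.00 to 0.21 in ES cells. Of these 8 fell, 0 rose, 6 were within 2-fold and 10 were above the expected level after control siRNA. Most of those that fell belong to the NPC only class. That class was chosen for high values in untreated NPCs, so their falls are not separate from those of the class. The 11 Klf4 pairs with both peaks had a median difference of -1.42, with 5 lower and 1 higher. Without the 6 windows with mostly falls, 17 pairs with both peaks were left, 6 lower and 1 higher, with a median of -0.53, beside 6.88% of all pairs lower. The peaks were called in untreated NPCs and say nothing of CTCF binding under control siRNA.

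A last comparison asked whether contacts that set untreated NPCs apart from one ES state also set control siRNA NPCs apart from the other, with no library used on both sides. Untreated NPCs were higher than ES cells in 2i in 431 window pairs (11.3% of 3827) and lower in 386 (10.1%). In the first list, control siRNA NPCs were higher than serum ES cells in 220 (51.0%) and lower in 23 (5.34%), with a median difference of 0.54, beside 17.01% higher and 19.6% lower over all pairs. In the second list they were higher in 10 (2.59%) and lower in 215 (55.7%), with a median of -0.79. The 2 lists thus moved in opposite directions, each the direction of untreated NPCs. With the ES states exchanged this did not hold. Pairs higher in untreated NPCs than in serum ES cells (438, 11.4%) had a median of -0.18 against 2i ES cells, with 114 higher and 158 lower, and pairs lower (384, 10.03%) had -0.11, with 112 higher and 139 lower, beside 24.8% and 26.7% over all pairs. By locus, the pairs higher in untreated NPCs had a median of 0.03 at Sox2, with 99 higher and 90 lower of 312. At Klf4 it was -0.67, with 15 higher and 68 lower of 126, beside 23.1% and 26.1% over all Klf4 pairs. The pairs lower in untreated NPCs had -0.18 at Sox2 and -0.05 at Klf4. With balanced windows the exchanged lists had medians of 0.24 and -0.28. At Sox2 these were 0.35 and -0.51, and at Klf4 -0.02 and 0.07.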

How the data were processed

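The authors' deposited raw read counts per 5C primer pair were used. The submitters' processing notes name Bowtie and mm9 without versions, and no read filter is stated in them. Member counts were added up in 16 kb windows (32660 of 33174 pairs; 514 lay outside the authors' bins). The expected count was fitted per library and locus by loess (span 0.5; pseudocount 0.5) against distance on the log scale. It entered as an offset, with TMM factors, in edgeR 4.0.16 (R 4.3.3; quasi-likelihood test, default expression filter, Benjamini-Hochberg adjustment over all window pairs of both loci). Intervals are 95% intervals of the same fit. Primer totals over 515 primers were tested the same way without a distance offset. The window-pair fit was checked on simulated counts with the same spread in both groups. Balancing, primer totals, shared top contacts and classes were not simulated.

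Per the file headers and values, the deposited primer list gives the GC fraction, the deposited 5C tables give an interaction score per bin pair and its p-value, and the deposited CTCF peak list gives a fold enrichment ratio that was not used beyond peak positions; the notes name MACS2 for peaks. A further 55 per-sample columns were not used.

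Named window pairs follow a rule, per locus: the 3 largest rises and falls among called, non-overlapping pairs at least 3 windows apart; the 4 highest in each group, with a mean of at least 20 counts and no window used again; the 2 most precisely bounded within 2-fold among the 20 highest in untreated NPCs; and the 2 primers with the largest rise and fall. The members and lists were chosen with earlier results of these data known. Groups share replicate numbers 1 and 2, but deviations of same-numbered libraries had Pearson's r of 0.001, so numbers were not taken as pairs. Alternatives covered scaling (plain TMM, DESeq2 1.42.0 with the same offsets, balanced windows), window size, count filters, the leading primer pair and each library left out. The GC trend, the loop class, CTCF, likeness and primer alternatives were chosen after seeing the data. No mm9 gene annotation was used, so windows carry no gene labels.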

Additional observations from a re-analysis of the deposited data

How the results depend on the processing

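Among the named window pairs, 230 of the values recomputed under other settings kept their direction and side of the threshold, 29 lost the call, 8 gained it and 5 reversed. With balanced windows 301 pairs were higher and 361 lower, the NPC-high and NPC-low medians were 0.42 and -0.65, the both-CTCF median was -0.48 and the mean likeness (0.60) was 0.45. With 8 kb windows 1509 rose and 1449 fell, and the NPC-high and NPC-low medians were 0.70 and -1.21; with 32 kb windows the counts were 231 and 201, 618 were within 2-fold, the medians 0.35 and -0.48 and the likeness 0.68. Single primer pairs gave 2508 higher, 2533 lower and 270 within 2-fold of 25451. With plain TMM the NPC-high and NPC-low medians were 0.68 and -0.62, and with a mean of at least 20 counts the NPC-low median was -0.73. Exchanging the ES states gave -0.18 and -0.11. The top 1% shared 22.9% (8 of 35). The Sox2 slope difference was 0.028 over window pairs and -0.057 from 32 kb; the Klf4 one was -0.040 and -0.197. Without the 6 windows with mostly falls, the NPC only median was -0.57 and the both-CTCF median -0.53.

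Leaving out each library in turn gave 219 to 616 higher, 165 to 667 lower, 464 to 918 within 2-fold and 32.2% to 37.4% of top contacts shared; its group then has 1 library, assumed to vary like the other. The slope difference ranged from 0.052 to 0.072 at Sox2 and -0.0079 to 0.060 at Klf4, the NPC-high median from 0.52 to 0.72, the NPC-low median from -0.80 to -0.68, the NPC only median from -0.95 to -0.72 and the both-CTCF median from -1.22 to -0.78. With the replicate number as a block, 664 pairs were higher, 587 lower and 1017 within 2-fold, and 1127 of the 1139 calls remained; the numbers are not taken to pair the libraries. Without the leading primer pair, 793 calls remained in the same direction and 16 turned. The pairs that reversed then were Sox2 34252881 with 34780881 (0.13), Klf4 54931980 with 55779980 (0.92), 54947980 with 55331980 (-2.04) and 55411980 with 55859980 (-0.0063). With balanced windows Sox2 34332881 with 35036881 reversed to -0.54. Except for the changes in window size, filter and libraries, the cause was not tested. With 2 libraries a group, single contacts below about 20 reads were measured poorly.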
